A study of Homo sapiens with 6 samples.

Results

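The expression of 9 genes of mitochondrial iron-sulfur cluster assembly was examined in H1975, a human lung adenocarcinoma line with mutant EGFR, before and after Osi (osimertinib), an EGFR tyrosine kinase inhibitor. The genes are ISCU, NFS1, LYRM4, ISCA1, ISCA2, NFU1, BOLA3, GLRX5 and IBA57. They were chosen by symbol from what their products do, with earlier results of these data known. All 9 were found among the 27216 rows of the deposited expression table. The 6 RNA-sequencing samples were 3 parental samples, labelled as Osi at 1000 nM for 0 h, and 3 adapted samples, labelled as the same dose for 72 h. The table names the parental columns for DMSO, and how long those cells were kept in DMSO, if at all, is not stated. All samples came from the same line, with a wild-type genotype in the labels and no engineered change. Apoptotic cells were rinsed off before RNA extraction, so that the adapted samples hold RNA of cells that stayed attached. The labels also mention RNase R, an enzyme that degrades linear RNA, whereas the study's methods name total RNA without it. The study's methods give the same Osi concentration as the labels for other assays, whereas its reagent list gives a lower one. The study describes its experiments in general as independent, but neither the labels nor its RNA-sequencing methods say whether these replicates were separate cultures, so the p-values measure the spread between these samples, which may be technical.

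Iron-sulfur clusters are small inorganic cofactors bound mostly through cysteines, found in respiratory complexes I to III and in many DNA repair and metabolic enzymes. In mitochondria, the cysteine desulfurase NFS1, held stable by LYRM4 (also called ISD11), takes sulfur from cysteine, and a small cluster is built on the scaffold ISCU. GLRX5, a glutaredoxin, relays that cluster. ISCA1, ISCA2 and IBA57 take part in making the larger clusters, and NFU1 and BOLA3 help to deliver those to recipient proteins, among them the enzyme that makes lipoic acid. The study sequenced these cells to ask how adapted cells come to have active oxidative phosphorylation, which relies on cluster proteins.

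Values are log2(FPKM + 1), a unit in which fragments are divided by gene length and by the size of the library, which lets levels be compared between genes. The unit was taken from the values, no read counts were used, and the depth is unknown. Without the logarithm, a sample's values added up to 375342 at the lowest and 387753 at the highest. Replicates correlated at 0.997 among parental and 0.991 to 0.996 among adapted samples, across genes, which are not independent replicates. All 7 epithelial markers looked at, EGFR among them, lay between 7.08 and 10.60, and of 9 leukocyte, endothelial, fibroblast and erythroid markers 8 averaged under 1 over both groups and 2 (CD3E and HBB) were listed at 0 in all samples. The exception was COL1A1, a fibrillar collagen chain, at 1.99 to 2.04 in parental and 2.97 to 3.28 in adapted samples, and of the 9 the groups stood apart for 5, 3 higher in adapted samples (COL1A1, VWF and PTPRC) and 2 lower (PECAM1 and CD14). Of the epithelial markers, KRT7 was higher in each adapted sample than in any parental sample, at 2.12 times the mean FPKM, and KRT8, KRT18 and KRT19 were lower, at 0.83, 0.68 and 0.59 times. The part of these markers in the results was not tested. In a bulk sample, a lower share of cells that express a gene and less RNA per cell cannot be told apart.

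A feature of the table bears on the results. For 27069 rows, removing the logarithm and the 1 returns numbers with 6 decimals in all samples. In 147 rows the values of 1 group do not return to such numbers, and they do so once a constant is subtracted on the log2 scale. Among the 9 genes, ISCU and ISCA1 are such rows, with a constant of 0.66 in all 3 adapted samples and none in the parental samples. The other 7 genes lie on the 6-decimal grid in all 6 samples. Values are given as deposited, with the values after subtraction beside them. Why the rows differ is not stated, and subtraction is not taken to restore earlier values.

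The assembly genes did not move together between parental and adapted cells. ISCU and ISCA1 were higher in adapted cells as deposited, by log2 fold changes of 0.68 and 0.99, NFU1 and BOLA3 were lower, and the desulfurase pair NFS1 and LYRM4, the relay protein GLRX5 and ISCA2 did not pass the test. Of the 9 genes, 8 averaged at least 1 on the log2 scale and were tested, and 4 of the 8 were past an adjusted p of 0.05 (limma), 2 higher and 2 lower. Over all 12656 rows tested, 56.9% were past that threshold, 30.7% higher and 26.2% lower in adapted cells, so the 50.0% of assembly genes past it lies near the share of the whole table. The groups did not overlap for 5 of the 8, beside 66.3% of all rows tested. The median log2 fold change of the 8 genes was -0.04, beside 0.028 over all rows tested, and it became 0.04 when the filter on low values was lifted or parental replicate 1 was left out. With the constants subtracted, 3 genes were past the threshold, 1 higher (ISCA1) and 2 lower. Without the rows that carry a constant, 2 of 6 were past it, both lower. IBA57, on the grid but under the filter on low values, is not among these 6 and was higher in each adapted sample. With 3 samples against 3, a two-sided exact permutation test of a single gene cannot give a p below 0.1.

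**Figure D1:**
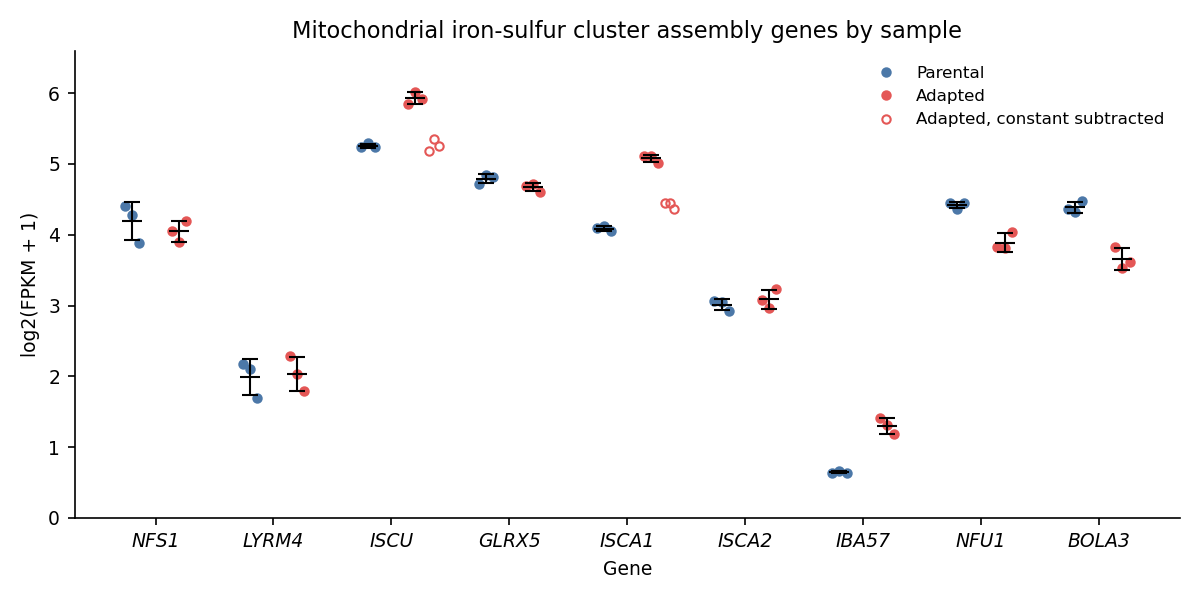
Expression of the 9 assembly genes, as log2(FPKM + 1) on the vertical axis, in 3 parental (blue) and 3 adapted (red) samples, with black bars for the mean and SD. Open circles are the adapted values of ISCU and ISCA1 after 0.66 was subtracted; the groups stand apart for ISCU, ISCA1, IBA57, NFU1, BOLA3 and GLRX5 as deposited, and for ISCU they no longer do after subtraction.

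ISCU, the scaffold on which the cluster is first put together, was the most abundant of the 9 transcripts in both groups. It read 5.24, 5.29 and 5.24 in the parental samples and 5.85, 6.02 and 5.92 in the adapted samples. All adapted values as deposited exceed all parental values, and they differed by 0.68 on the log2 scale (95% interval 0.53 to 0.83, limma, adjusted p = 0.000131). On the linear scale this is 37.2 ± 0.76 against 60.2 ± 3.7 FPKM (SD, n = 3 each). After 0.66 was subtracted, the adapted samples read 5.19, 5.36 and 5.26, within and around the parental range. The log2 fold change was then 0.02 (95% interval -0.13 to 0.17, adjusted p = 0.839), and the linear mean of the adapted samples was 37.7 ± 2.3 FPKM. The call for higher ISCU therefore rests on the constant.

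ISCA1, which acts with ISCA2 in forming the larger clusters, had the largest difference of the members tested as deposited. Its parental values were 4.09, 4.12 and 4.05 and its adapted values 5.11, 5.11 and 5.02. The groups are separated by more than their spread, by 0.99 on average (95% interval 0.86 to 1.13, limma, adjusted p = 1.83e-05). In FPKM, the mean went from 16.0 ± 0.42 to 32.8 ± 1.3 (SD, n = 3 each). With 0.66 subtracted the adapted samples read 4.45, 4.45 and 4.36, still above every parental sample. The log2 fold change was then 0.33 (95% interval 0.19 to 0.47, adjusted p = 0.0026), which corresponds to 20.4 ± 0.81 FPKM in adapted cells. ISCA1 was thus past the threshold with and without the constant, at a different size.

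ISCA2, the partner of ISCA1, lies on the grid and did not follow it. It read 3.06, 3.05 and 2.92 in parental and 3.08, 2.96 and 3.23 in adapted samples. The groups overlap, with a log2 fold change of 0.08 (95% interval -0.13 to 0.29, limma, adjusted p = 0.462). IBA57, a folate-binding protein that works with both, was the least abundant of the 9 and, at a mean of 0.97, fell just under the filter on low values. It read 0.64, 0.66 and 0.63 in parental and 1.41, 1.31 and 1.18 in adapted samples, all on the grid. Every adapted sample was higher, and the linear mean went from 0.563 ± 0.017 to 1.47 ± 0.2 FPKM (SD, n = 3 each), 2.61 times the parental mean. With the filter lifted, the log2 fold change of IBA57 was 0.66 (95% interval 0.46 to 0.86, limma, adjusted p = 0.00183 over all rows then tested). IBA57 is thus given as a value outside the main test.

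NFU1 and BOLA3, the delivery factors for the larger clusters, both fell. NFU1 read 4.45, 4.37 and 4.45 in parental and 3.82, 3.81 and 4.04 in adapted samples, a log2 difference of -0.54 (95% interval -0.72 to -0.35, limma, adjusted p = 0.00101). BOLA3 read 4.37, 4.32 and 4.47 in parental and 3.83, 3.53 and 3.62 in adapted samples, a log2 difference of -0.73 (95% interval -0.94 to -0.51, adjusted p = 0.000482). For both genes every adapted sample lay below every parental sample. In linear terms, NFU1 went from 20.5 ± 0.69 to 13.9 ± 1.4 FPKM and BOLA3 from 20.0 ± 1.1 to 11.7 ± 1.4 FPKM (SD, n = 3 each). Both genes lie on the grid, and across the 18 alternatives their log2 fold changes stayed between -0.61 and -0.49 for NFU1 and between -0.81 and -0.66 for BOLA3, past the threshold in each. Of all rows tested, 13.0% had a lower log2 fold change than NFU1 and 8.72% a lower one than BOLA3.

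NFS1, the desulfurase, read 4.41, 4.28 and 3.89 in parental and 4.05, 3.90 and 4.20 in adapted samples. Its groups overlap because parental replicate 3 was lower than the other parental samples. The log2 fold change was -0.14 (95% interval -0.48 to 0.19, limma, adjusted p = 0.424), and without parental replicate 3 it was -0.29 (adjusted p = 0.0684). LYRM4, which stabilises NFS1, showed the same low parental replicate 3, with values of 2.18, 2.10 and 1.70 in parental and 2.28, 2.03 and 1.79 in adapted samples. Its log2 fold change of 0.04 (95% interval -0.35 to 0.43, adjusted p = 0.856) changed sign to -0.11 without parental replicate 3, to -0.08 without adapted replicate 1 and to -0.02 after quantile normalization, none of them past the threshold. For both genes of the desulfurase the intervals leave room for a moderate change in either direction.

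GLRX5, the cluster relay, read 4.72, 4.84 and 4.82 in parental and 4.69, 4.72 and 4.61 in adapted samples. The groups just fail to overlap, with the lowest parental and the highest adapted sample nearly equal. The log2 fold change of -0.12 (95% interval -0.27 to 0.03, limma, adjusted p = 0.133) did not pass the threshold.

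**Figure D2:**
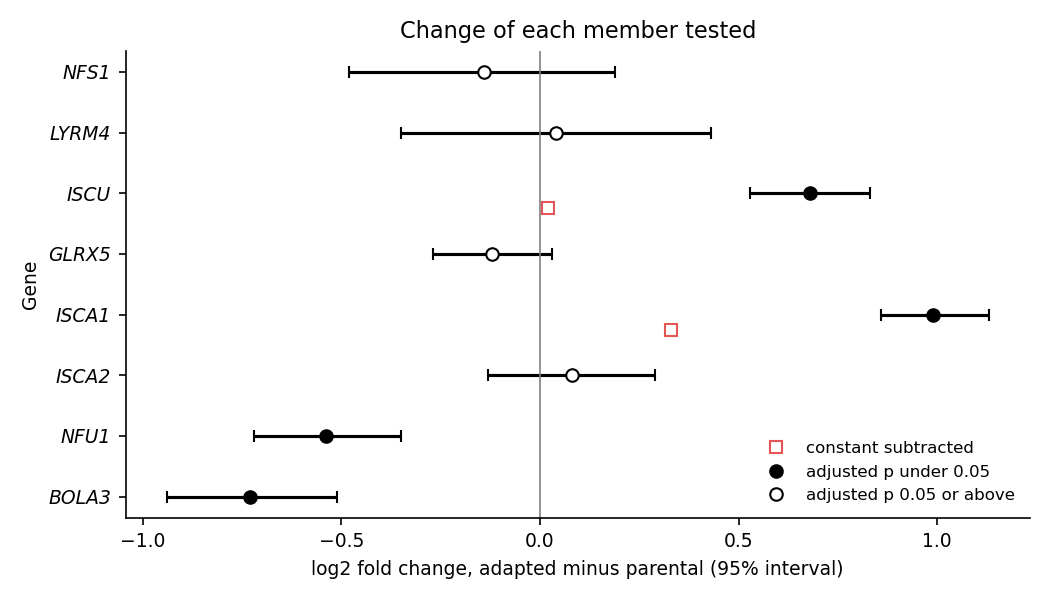
Log2 fold change, adapted minus parental, of the 8 members tested (horizontal axis, bars are 95% intervals of limma), with filled circles past an adjusted p of 0.05. Squares mark ISCU and ISCA1 after 0.66 was subtracted from their adapted values, at 0.02 and 0.33, against 0.68 and 0.99 as deposited.

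Parental cells held the 9 transcripts in the order ISCU (37.2 FPKM), GLRX5 (26.8), NFU1 (20.5), BOLA3 (20.0), NFS1 (17.5), ISCA1 (16.0), ISCA2 (7.07), LYRM4 (3.02) and IBA57 (0.563). The samples of NFU1 overlapped those of BOLA3, those of BOLA3 overlapped NFS1 and those of NFS1 overlapped ISCA1, so these neighbours do not differ beyond their spread, while NFU1 and ISCA1 themselves did not overlap. In adapted cells, ISCA1 was second at 32.8 FPKM as deposited, above GLRX5 at 24.5. NFS1 (15.6), NFU1 (13.9) and BOLA3 (11.7) followed, with overlap between NFS1 and NFU1 and between NFU1 and BOLA3. With the constant subtracted, ISCA1 at 20.4 FPKM ranked below GLRX5. ISCA2 (7.55), LYRM4 (3.13) and IBA57 (1.47) again held the last places.

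Ratios of FPKM between partners within a sample do not depend on how the samples were scaled to each other. They were chosen after the members' values were known and are a description. The ratio of ISCU to NFS1 was 1.82, 2.07 and 2.66 in parental and 3.63, 4.60 and 3.44 in adapted samples as deposited. The groups do not overlap, but with the constant subtracted the adapted ratios were 2.28, 2.88 and 2.16 and they do. The ratio of ISCA1 to ISCA2 was 2.18, 2.25 and 2.38 in parental and 4.49, 4.95 and 3.74 in adapted samples, or 2.79, 3.08 and 2.33 after subtraction, where the third adapted sample falls within the parental range. The ratios that involve no constant were those of the delivery factors to GLRX5, of NFU1 to BOLA3 and of LYRM4 to NFS1. BOLA3 over GLRX5 was 0.78, 0.69 and 0.78 in parental and 0.53, 0.42 and 0.49 in adapted samples. NFU1 over GLRX5 was 0.82, 0.71 and 0.77 in parental and 0.53, 0.51 and 0.66 in adapted samples. Both were lower in each adapted sample than in any parental sample. The ratio of NFU1 to BOLA3 overlapped between the groups, at 1.03 ± 0.04 and 1.20 ± 0.19 (SD, n = 3 each). That of LYRM4 to NFS1 did too, at 0.17 ± 0.01 and 0.20 ± 0.05.

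The positions of the 4 genes past the threshold are those of GENCODE v29 on GRCh38 (hg38), the build that the submitters name, although the annotation they used is not stated. ISCU lies at chr12:108562582-108569384 on the plus strand, ISCA1 at chr9:86264546-86283102, NFU1 at chr2:69395750-69437628 and BOLA3 at chr2:74135398-74147994, the last 3 on the minus strand. No other annotated gene overlaps these 4. Pseudogenes named after the member are annotated for ISCA1 (5), BOLA3 (4), NFU1 (2), ISCU (1) and ISCA2 (1), and none is listed in the table. How any reads shared with these copies were counted is not known. Among the members that did not pass, NFS1 shares 88 exonic bases with ROMO1 and ISCA2 shares 103 with NPC2, each on the opposite strand, and whether the library kept strand is not stated. NFS1 also shares 289 exonic bases with AL109827.1 on its own strand, and GLRX5 shares 391 with the antisense gene SNHG10.

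The sequences before the start sites of the 4 genes past the threshold are shown. They set the members that were lower (NFU1 and BOLA3) beside those that were higher as deposited (ISCU and ISCA1). Each is the 250 bases before the start in RefSeq on GRCh38.p14, read 5′ to 3′ on the strand of the gene. RefSeq starts can lie inside the GENCODE gene, as those of ISCU, ISCA1 and BOLA3 do, and the ISCA1 window lies wholly inside it. The windows are chr12:108562346-108562595 for ISCU, chr9:86282539-86282788 for ISCA1, chr2:69437629-69437878 for NFU1, which has 2 entries of which the one that ends at the GENCODE start is shown, and chr2:74147913-74148162 for BOLA3. Capitals mark matches on either strand to motifs of factors known for mitochondrial genes, namely GCGCA and GCGC separated by any base for NRF1, CCGGAAG for the ETS family and AANATGGCG for YY1.
ISCU: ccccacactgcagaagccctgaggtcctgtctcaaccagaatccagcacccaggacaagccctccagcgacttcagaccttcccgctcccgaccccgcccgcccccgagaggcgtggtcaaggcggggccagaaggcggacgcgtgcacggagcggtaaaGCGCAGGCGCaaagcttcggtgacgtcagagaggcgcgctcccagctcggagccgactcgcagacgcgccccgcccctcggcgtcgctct
ISCA1: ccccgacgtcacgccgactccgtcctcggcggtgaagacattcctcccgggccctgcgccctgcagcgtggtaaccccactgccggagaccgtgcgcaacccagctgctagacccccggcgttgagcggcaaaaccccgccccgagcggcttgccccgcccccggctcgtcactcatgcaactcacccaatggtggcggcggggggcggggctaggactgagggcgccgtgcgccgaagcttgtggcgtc
NFU1: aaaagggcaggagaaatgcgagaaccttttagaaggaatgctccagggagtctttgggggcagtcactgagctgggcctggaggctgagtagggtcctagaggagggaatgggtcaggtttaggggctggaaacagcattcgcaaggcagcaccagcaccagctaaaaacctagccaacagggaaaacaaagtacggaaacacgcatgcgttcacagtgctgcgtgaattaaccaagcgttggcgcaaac
BOLA3: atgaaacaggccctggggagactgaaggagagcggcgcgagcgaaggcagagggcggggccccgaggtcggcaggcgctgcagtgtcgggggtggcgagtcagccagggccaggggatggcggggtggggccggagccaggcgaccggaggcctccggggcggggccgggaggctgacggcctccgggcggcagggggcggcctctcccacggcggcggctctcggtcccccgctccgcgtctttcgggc
ISCU held 1 NRF1 match, which begins 90 bases before the start, and the windows of the other 3 genes held none of the 3 motifs. The NRF1 letters occur in 5.07% of 35116 windows of this length, the ETS letters in 8.52% and the YY1 letters in 1.38%. The G and C content was 69.6% for ISCU, 72.0% for ISCA1, 53.2% for NFU1 and 77.6% for BOLA3, so the pair that fell held both the highest and the lowest content of the 4. Among the other members, NFS1 held 1 ETS match, 20 bases before its start. A match is a description of letters, and binding was not measured.

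A list of 11 further genes of mitochondrial assembly, among them those for electron supply and cluster release, had 8 past the threshold, 5 higher and 3 lower, with a median log2 fold change of 0.12. That is 72.7% of the list, beside 56.9% of all rows tested. Of the 5 that were higher, 4 are rows whose adapted values hold the 0.66 constant. Among these were GRPEL1, a co-chaperone (log2 fold change 1.10, limma, adjusted p = 0.000132), and NDUFAB1, the mitochondrial acyl carrier protein (0.85, adjusted p = 0.000148). With the constant subtracted, GRPEL1 remained past the threshold (0.44, adjusted p = 0.00923) and NDUFAB1 did not (0.19, adjusted p = 0.0847). The single rise without a constant was FDX2, the ferredoxin of cluster synthesis, named after its value was seen (0.41, adjusted p = 0.00353). BOLA1, a paralogue of BOLA3, fell by 0.39 (log2, adjusted p = 0.00633), from 2.96 ± 0.07 to 2.57 ± 0.12 (SD, n = 3 each). HSCB, the co-chaperone that releases the cluster from ISCU, fell by 0.24 (adjusted p = 0.0258), and FDXR, which reduces the ferredoxins, fell by 0.20 (adjusted p = 0.0432). Both calls were unsteady. With samples omitted in turn, HSCB was no longer past the threshold in 4 of 6 fits, those without parental replicates 1 and 2 and adapted replicates 2 and 3 (adjusted p up to 0.11), and FDXR in 5, all but the fit without adapted replicate 1 (up to 0.163).

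Recipients of the clusters in mitochondria were higher in adapted cells where the row carried the 0.66 constant and did not pass the test, in the fit of all samples, where it did not. Of 16 such genes 15 were tested, 7 rose and 0 fell (limma, adjusted p under 0.05), and 0 were lower at an unadjusted p under 0.05. The median log2 fold change was 0.11, and 46.7% of the genes tested were past the threshold, beside 56.9% of all rows tested. All 7 carry the constant of 0.66, and the largest rises were in NDUFS7 (log2 fold change 1.20) and NDUFV2 (1.18) of complex I, SDHB of complex II (5.26 ± 0.05 to 6.40 ± 0.05, SD, n = 3 each, log2 fold change 1.13) and ETFDH (1.03), the electron carrier of fatty acid oxidation. After subtraction 4 of the 7 were past the threshold, NDUFS7 at 0.54 (adjusted p = 0.00407), NDUFV2 at 0.52 (adjusted p = 0.000419), SDHB at 0.47 (adjusted p = 0.000479) and ETFDH at 0.37 (adjusted p = 0.0343). UQCRFS1, the Rieske protein of complex III, was then at 0.22 (adjusted p = 0.109) and FDX1, a ferredoxin needed for lipoylation, at 0.26 (adjusted p = 0.123). NDUFS1 carries a constant of 0.2 in the parental samples and gave a log2 fold change of -0.35 (adjusted p = 0.127) as deposited and -0.15 (adjusted p = 0.499) after subtraction. Without adapted replicate 1 NDUFS1 was past the threshold at -0.54 (adjusted p = 0.00411). Of the 7 recipients on the grid, 0 were past the threshold in limma and 0 had an unadjusted p under 0.05, with log2 fold changes from -0.32 to 0.11. Without adapted replicate 1, the on-grid NDUFS8 (-0.15, adjusted p = 0.0187) and CISD3 (-0.48, adjusted p = 0.00177), named after their values were seen, passed as lower. In the fit of all samples, the on-grid FECH, the last enzyme of heme synthesis, was at -0.05 (adjusted p = 0.623). LIAS, the lipoic acid synthase served by NFU1 and BOLA3 and also on the grid, was at 0.01 (95% interval -0.36 to 0.37, adjusted p = 0.975). Under other settings both crossed 0 without passing the threshold.

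The constants were found in the lists of members, other mitochondrial assembly genes and mitochondrial recipients, and in none of the other 3 lists. Products of the lipoylation genes, 1 of those other lists, also act in mitochondria, so a list of genes with mitochondrial products could also lack constants. Of 34 tested genes in the 3 lists with constants, 14 carried one, while 1.11% of all rows tested did. In those lists 14 genes rose, 13 of them with a constant, and 7 of the 13 were past the threshold after subtraction. The 20 genes of these 3 lists on the grid had 1 that rose and 5 that fell. None of the 43 genes of cytosolic assembly, of cytosolic and nuclear recipients and of lipoylation carried a constant. There, 6 rose and 11 fell. Of all rows tested, 30.7% were higher and 26.2% lower past the threshold.

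The cytosolic assembly system, which builds clusters for cytosolic and nuclear proteins, had 5 of 12 genes past the threshold, 3 higher and 2 lower, with a median log2 fold change of 0.10. This share of 41.7% lies under the 56.9% of all rows tested. CIAPIN1, an early electron carrier of that system, rose by 0.42 in log2 units (limma, adjusted p = 0.0152), CIAO3 by 0.38 (adjusted p = 0.00592) and LTO1, an adaptor of the targeting complex, by 0.31 (adjusted p = 0.021). CIAO2B, a subunit of the targeting complex, fell from 5.78 ± 0.06 to 5.14 ± 0.37 (SD, n = 3 each, adjusted p = 0.0131) and CIAO2A, its paralogue, fell by 0.23 (adjusted p = 0.0494). The count dropped to 3 without parental replicate 1 and without parental replicate 3. CIAO2A was past the threshold in 1 of 6 fits that left out a sample, the one without adapted replicate 1, LTO1 in 3, losing its call without parental replicates 2 or 3 or adapted replicate 2, and CIAPIN1 in 5 (adjusted p = 0.0554 without parental replicate 1).

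Among 20 cytosolic, endoplasmic reticulum and nuclear proteins that hold a cluster, 1 rose and 9 fell past the threshold, with a median log2 fold change of -0.15. Past the threshold were thus 50.0% of the list, beside 56.9% of all rows tested, of which 30.7% were higher and 26.2% lower. XDH, the xanthine dehydrogenase of purine breakdown, read 4.36, 4.43 and 4.41 in parental and 1.37, 1.33 and 1.48 in adapted samples, and was lower by a log2 difference of -3.01 (limma, adjusted p = 5.52e-07). DPYD, which degrades pyrimidines, read 4.11, 4.11 and 4.03 in parental and 3.11, 3.15 and 2.94 in adapted samples and fell by 1.01 (adjusted p = 5.04e-05). BRIP1, a helicase of DNA repair, fell by 1.07 and MUTYH, a DNA glycosylase, by 1.02. For all 4 genes the groups were apart by far more than their spread. The single rise was ERCC2, a helicase of nucleotide excision repair (0.29, adjusted p = 0.0386), and it was lost in the fits without parental replicate 1, 2 or 3 (adjusted p up to 0.13), without the filter on low values (0.066), after quantile normalization (0.0562) and after median centring (0.0527). ACO1, the cytosolic aconitase that becomes an iron sensor without its cluster, was at -0.12 (95% interval -0.28 to 0.04, adjusted p = 0.171).

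Lipoylation depends on LIAS and so on delivery by NFU1 and BOLA3, though not every gene listed for it acts after LIAS. Of 11 genes for protein lipoylation and the enzyme complexes that use lipoic acid, 2 rose and 0 fell past the threshold in limma, and 1 was lower at an unadjusted p under 0.05. The median log2 fold change was 0.03, and 18.2% of the list was past the threshold, beside 56.9% of all rows tested. PDHX, a structural subunit of pyruvate dehydrogenase, went from 3.46 ± 0.06 to 3.91 ± 0.01 (SD, n = 3 each, log2 fold change 0.45, limma, adjusted p = 0.000681). GCSH, the lipoylated carrier of the glycine cleavage system, rose by 0.38 (adjusted p = 0.0117). DLAT, the lipoylated core of pyruvate dehydrogenase, was at -0.10 (95% interval -0.25 to 0.06, adjusted p = 0.263).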

How the data were processed

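The values deposited by the authors form a single log2 table of 27216 rows. Its 6 columns were assigned to samples from the group and number in their names. The unit is not named in the sources used here and was read from the values as log2(FPKM + 1). The submitters' processing notes list hg38, Bowtie2 2.1.0, STAR and edgeR without a role. The quantifier and annotation are not given in the sources used here. The study's own test needs counts, so limma 3.58.1 in R 4.3.3 (lmFit, eBayes with a trend) was run, two-sided and unpaired, on the 12656 rows with a mean of at least 1, with Benjamini-Hochberg adjustment over all of them. A row was on the grid where each linear value lay within 0.005 of a whole number of the sixth decimal. The fit and the search for constants were tested on simulated data. The members and lists were chosen with earlier results of these data known. Genes named were all members and, from each other list, up to 4 of the largest rises and 4 of the largest falls past the threshold without overlap, and genes whose protein or activity the study measured. LIAS, FDX1 and ACO1 were also named, though the study's text reports no measurement of their protein or activity. Other exceptions are named as such. Some genes that this rule takes are counted in their lists but not reported here by name. Alternatives were another pseudocount, other filters, scalings and variance models, a replicate block, leaving out each sample, NewGene_ rows or rows off the grid, and subtracting the constants. Positions are from GENCODE v29 and promoters from RefSeq.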

Additional observations from a re-analysis of the deposited data

How the results depend on the processing

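The count of 4 members past the threshold (limma, adjusted p under 0.05) was 4 in all 6 fits that each left out a sample, 3 with the constants subtracted, and 2 with the rows off the 6-decimal grid left out, which removes ISCU and ISCA1. Without the filter on low values, which lets IBA57 in, the count was 5 of 9, 3 higher and 2 lower. The median log2 fold change of the members, -0.04, changed sign to 0.04 without the filter on low values and ranged from -0.11 to 0.04 when a sample was left out. For mitochondrial recipients, the count of 7 became 4 with the constants subtracted and 0 with those rows left out, and was 7 to 10 when a sample was left out. The count of 8 for other mitochondrial assembly genes became 4 without rows off the grid and 5 with a mean of at least 3 (fewer genes tested), and was 6 to 9 when a sample was left out. The cytosolic assembly count ranged from 3 to 6, that of cytosolic and nuclear recipients from 9 to 12 and that of lipoylation from 2 to 3. Over all rows, 7202 were past the threshold, 4532 of 7693 under the stricter filter, and 5763 to 8370 when a sample was left out. Equal sums without mitochondrially encoded genes gave a median log2 fold change over all rows of 0.070 in place of 0.028. Values near 0 that changed sign without a call were LYRM4 (-0.02 after quantile normalization, -0.11 without parental replicate 3, -0.08 without adapted replicate 1), LIAS (-0.04 after quantile normalization, -0.01 after median centring, -0.05 without parental replicate 2, -0.16 without adapted replicate 2) and FECH (0.01 without adapted replicate 3). With each sample left out in turn they ranged from -0.11 to 0.16, from -0.16 to 0.16 and from -0.12 to 0.01. The cause was not tested. With the replicate block, 4 members were past the threshold and 6761 rows in all, and FDXR (adjusted p = 0.0863) and CIAO2A (0.0562) lost their calls. FDXR and CIAO2A also lost them without the filter (0.0651 and 0.0719) and, with HSCB (0.0526), under equal sums (0.0963 and 0.0749). Deviations of samples with the same replicate number correlated at -0.05, -0.03 and -0.02, so no shared deviation by number was seen. That cannot tell whether samples with the same number came from the same culture.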
